A study of Mus musculus with 64 samples.

Results

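The 10 genes H19, Igf2, Cdkn1c, Dlk1, Meg3, Peg3, Ndn, Mest, Plagl1 and Grb10 are imprinted genes with known roles in body or tissue growth, and all 10 were found, by matching Ensembl identifiers to gene symbols, among the 18432 genes of the deposited table. Their transcripts were followed in frontal cortex and hippocampus in the postnatal weeks (abbreviated PWK) 1, 7, 14 and 28, in WT mice and in KI littermates. KI mice (Cyfip2+/R87C) carry 1 copy of a knock-in allele with the Arg87Cys substitution in CYFIP2, a subunit of the WAVE actin-regulatory complex, carried in the germ line. All mice were C57BL/6N, and 4 mice of each age and genotype gave both tissues, so that each of the 16 groups held 4 libraries and the series 64. Different mice were used at each age, so no value follows a single animal. The values are normalised counts, that is, estimated read counts divided by factors for library size and transcript length.

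An imprinted gene is transcribed mainly from the copy inherited from one parent, because a DNA methylation mark set in the egg or sperm persists through development. Several such genes act on growth in opposite ways: Igf2 encodes a fetal growth factor, whereas Cdkn1c encodes an inhibitor of cyclin-dependent kinases and Grb10 an adaptor that damps insulin and IGF receptor signalling. H19 and Igf2 share enhancers on distal chromosome 7, with H19 expressed from the maternal and Igf2 from the paternal copy, and Dlk1 and Meg3 form another such pair on chromosome 12. In the adult brain, Igf2 transcripts are known chiefly from the choroid plexus and leptomeninges. The counts used here do not tell which parental copy a transcript came from, in any tissue or cell type.

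Of the members, 4 also carry microRNA hairpins within their transcription units, and the RNA libraries do not measure mature microRNAs. The mature sequences of Mir675, Mir483, Mir770 and Mir335 are shown because these genes are read as hosts as well as transcripts. Meg3 overlaps a further annotated microRNA on its strand, Mir1906-1, which is not shown. The 8 mature arms shown lie inside their host gene on its strand (RefSeq, GRCm38.p6). Their seeds (bases 2 to 8, in capitals) are 8 different heptamers, and they read 5′ to 3′ as follows.
mmu-miR-675-5p, in H19 (chr7:142577112-142577133, minus strand): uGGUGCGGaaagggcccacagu
mmu-miR-675-3p, in H19 (chr7:142577078-142577099, minus strand): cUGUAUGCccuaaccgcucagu
mmu-miR-483-5p, in Igf2 (chr7:142654968-142654989, minus strand): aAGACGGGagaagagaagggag
mmu-miR-483-3p, in Igf2 (chr7:142654932-142654952, minus strand): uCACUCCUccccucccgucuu
mmu-miR-770-5p, in Meg3 (chr12:109563710-109563731, plus strand): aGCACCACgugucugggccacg
mmu-miR-770-3p, in Meg3 (chr12:109563744-109563765, plus strand): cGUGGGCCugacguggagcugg
mmu-miR-335-5p, in Mest (chr6:30741314-30741336, plus strand): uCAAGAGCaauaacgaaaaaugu
mmu-miR-335-3p, in Mest (chr6:30741354-30741375, plus strand): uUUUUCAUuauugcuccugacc

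The promoters of Igf2, of the imprinted neighbours Dlk1 and Meg3, and of Mest are given as the 250 bases before a RefSeq start site, in the direction of transcription and with no base in an annotated exon of that strand. The hexamer TGCCGC, which ZFP57 binds when it is methylated, is in capitals on either strand, where it reads TGCCGC or GCGGCA.
Igf2 (GRCm38.p6, chr7:142657497-142657746, minus strand): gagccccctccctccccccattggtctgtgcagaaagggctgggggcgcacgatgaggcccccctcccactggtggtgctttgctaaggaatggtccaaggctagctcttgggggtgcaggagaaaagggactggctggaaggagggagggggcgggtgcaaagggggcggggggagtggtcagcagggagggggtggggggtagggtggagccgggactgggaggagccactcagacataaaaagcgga
Dlk1 (GRCm38.p6, chr12:109452573-109452822, plus strand): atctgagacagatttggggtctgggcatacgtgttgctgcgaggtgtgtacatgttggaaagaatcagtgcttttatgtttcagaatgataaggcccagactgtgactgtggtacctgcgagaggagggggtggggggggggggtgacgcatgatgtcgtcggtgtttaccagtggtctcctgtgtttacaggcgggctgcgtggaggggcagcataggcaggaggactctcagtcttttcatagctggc
Meg3 (GRCm38.p6, chr12:109540746-109540995, plus strand): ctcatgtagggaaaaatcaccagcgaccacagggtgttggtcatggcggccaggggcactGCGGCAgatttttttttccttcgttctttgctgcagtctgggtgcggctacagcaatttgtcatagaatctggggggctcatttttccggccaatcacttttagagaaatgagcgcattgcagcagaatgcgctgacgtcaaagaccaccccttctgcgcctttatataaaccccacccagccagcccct
Mest (GRCm38.p6, chr6:30737800-30738049, plus strand): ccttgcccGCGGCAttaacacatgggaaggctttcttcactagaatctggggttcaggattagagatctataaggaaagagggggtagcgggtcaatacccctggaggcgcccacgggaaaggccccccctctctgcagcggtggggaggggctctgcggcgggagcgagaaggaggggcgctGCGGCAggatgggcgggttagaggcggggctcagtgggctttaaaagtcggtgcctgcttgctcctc
The hexamer occurred 1 time before Meg3, 2 times before Mest and in neither of the other windows. Counting all 15 windows of 300 bases (250 before and 50 after a start site) that RefSeq lists for 8 members, it was found in at least 1 window of 5 of them, Igf2, Meg3, Mest, Plagl1 and Grb10, against 13.1% of the 27025 genes with a window and 11.6% of windows. The members had 15 windows for 8 genes, some of them overlapping, and the background 32851 windows for 27025 genes. The shares of genes are therefore not like for like. These counts describe letters in the reference genome, not binding.

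Each library summed to 29225576 to 32601227 normalised counts. Cyfip2 itself was detected throughout, with group means of 15205 to 41799, and since the allele is a substitution its level does not test the genotype labels. Prox1, a transcription factor of dentate granule neurons, ranged from 2980.2 to 6272 in hippocampus and from 360.4 to 679 in cortex, and Rorb, a marker of cortical layer neurons, from 816 to 1685 in cortex and from 388 to 694 in hippocampus. Choroid plexus transcripts varied widely within hippocampal groups. Ttr, the main secreted protein of the choroid plexus, ranged from 26.6 to 114193 in hippocampus, and in cortex it stayed between 5.01 and 920 except for 20074 in WT replicate 2 at PWK 28. A further library stood apart: KI hippocampus replicate 1 at PWK 14 had 131431 for the astrocyte filament gene Gfap against 40059, 45879.7 and 47169 in the other KI mice, and a sum over 8 cell cycle genes of 4650.2 where the others had 453 to 490.3.

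**Figure D1:**
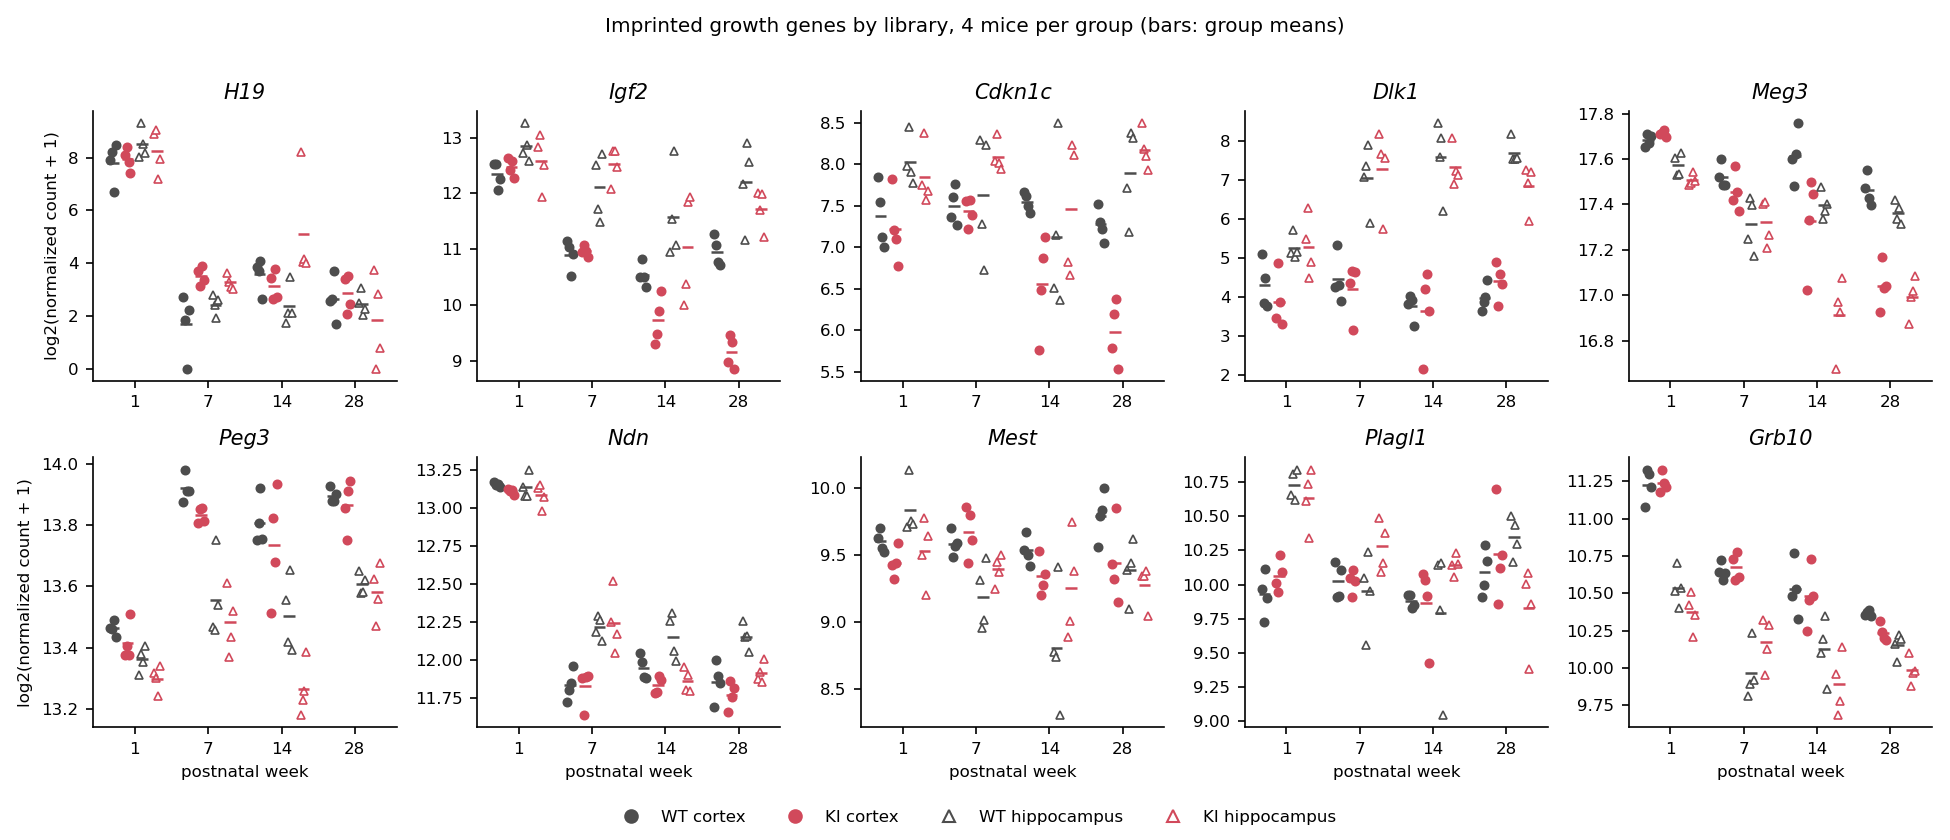
Each panel plots 1 gene as log2(normalised count + 1) on the y axis against postnatal week on the x axis, with 1 point for each of the 64 libraries, filled circles for cortex, open triangles for hippocampus, grey for WT, red for KI, and bars at group means. H19 lay between 102 and 629 at PWK 1 and at 16.8 or less at later ages except for 1 KI hippocampus at 299, Dlk1 was higher in hippocampus at later ages while staying at 39.2 or less in cortex, and Igf2 and Cdkn1c were lower in KI than in WT cortex at PWK 14 and 28.

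Counts were divided by the joint length of all annotated exons of a gene. This length can exceed that of its expressed transcripts, so close ranks between genes are approximate. The resulting levels ranked Meg3 far above the rest. In WT cortex at PWK 1 its mean was 11648 ± 219.8 normalised counts per kilobase (SD, n = 4), followed by Ndn at 2467 ± 22.3, Igf2 at 914 ± 142 and Peg3 at 847 ± 12.8, and the last pair overlapped within 1 SD. Grb10 (264 ± 20.1), Mest (197 ± 10.9), Plagl1 (125 ± 14.0), H19 (101 ± 44.4) and Cdkn1c (83.5 ± 23.0) formed a middle range, in which H19 overlapped within 1 SD with both Plagl1 and Cdkn1c, and Dlk1 was lowest at 3.54 ± 1.69. At PWK 28 in the same tissue Peg3 (1144 ± 19.4) and Ndn (1009 ± 88.2) came next after Meg3 (9991 ± 469), ahead of Igf2 (352 ± 65.4) and Mest (226 ± 28.2). Grb10 (145 ± 1.93) and Plagl1 (140.3 ± 16.7) overlapped within 1 SD, Cdkn1c followed at 76.0 ± 10.3, and H19 was lowest at 2.50 ± 1.71, within 1 SD of Dlk1 at 2.66 ± 0.677.

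The first question was how these genes changed between the neonatal week and young adulthood. In WT cortex, 6 of the 10 genes changed between PWK 1 and PWK 7 and 5 of these fell, in a comparison in which 65.3% of all genes tested were called and 32.7% were lower (limma on log2(value + 1), Benjamini-Hochberg adjusted p under 0.05 over all genes, the rule used throughout). In WT hippocampus 9 changed, 7 of them downwards, against a background of 61.3% called and 30.4% lower. The share called in cortex was thus near that of the whole transcriptome, most of which moved at this step.

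H19, a maternally expressed non-coding RNA (GRCm38, chr7:142575529-142578143, minus strand), fell furthest. Its normalised counts in the 4 WT cortex libraries were 238, 294, 102 and 358 at PWK 1 and 5.54, 2.62, 0 and 3.71 at PWK 7. In WT hippocampus they were 261, 629, 369 and 292 at PWK 1 and 5.85, 4.29, 2.80 and 5.06 at PWK 7. Every neonatal library lay above every young adult library in both tissues. Groups were separate, in either direction, for 59.7% of all genes in cortex and 56.3% in hippocampus. The log2 fold change in cortex was -6.12 ± 0.55 (± SE, as for all log2 fold changes here; adjusted p = 1.07e-06) and that in hippocampus -6.09 ± 0.29 (adjusted p = 1.33e-08), both understated by the added count of 1 at such low levels. In KI mice the cortical step was -4.43 ± 0.24 (adjusted p = 7.6e-09) and the hippocampal step -5.00 ± 0.36 (adjusted p = 2.26e-07). The 8 cell cycle genes of the proliferation list, among them Mki67 and Top2a, all fell in both WT tissues, with a median log2 change of -2.64 in cortex and -2.88 in hippocampus where the medians over all genes were 0.012 and 0.013.

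Igf2, the growth factor gene next to H19 (chr7:142650766-142666816, minus strand), fell less and stayed abundant. WT cortex had 5899, 5896, 4249 and 4889.8 at PWK 1 and 2254, 2100.2, 1469.8 and 1927 at PWK 7, with no overlap and a log2 fold change of -1.44 ± 0.13 (adjusted p = 1.39e-06). WT hippocampus had 6759.8, 9756, 7485 and 6094 at PWK 1 and 5857, 3384, 2877 and 6681 at PWK 7. These groups overlapped, and the change of -0.75 ± 0.25 (adjusted p = 0.0213) did not pass without replicate 2 of either age (adjusted p up to 0.0652). In KI mice Igf2 fell by 1.51 on the log2 scale in cortex (adjusted p = 3.27e-09) and changed by -0.061 in hippocampus, which was not called (adjusted p = 0.818). Of 10 leptomeningeal markers, 4 fell and 1 rose in WT cortex over this step (median -0.12) and 6 fell in WT hippocampus (median -0.72), with Col3a1 down by 3.07 and 3.84 (adjusted p = 4.13e-05 and 4.42e-08). Of 10 choroid plexus markers 2 fell and 1 rose in cortex and 1 rose in hippocampus. Their part in the change of Igf2 was not tested. In whole tissue, fewer cells of a type and less RNA per cell cannot be told apart.

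Ndn, which encodes the MAGE protein necdin and is paternally expressed from the region homologous to the Prader-Willi locus (chr7:62346569-62350262, plus strand), fell with little spread. WT cortex had 9207, 9102, 9138 and 9009.7 at PWK 1 and 3393, 3584, 3696 and 3989.5 at PWK 7, without overlap (-1.32 ± 0.049, adjusted p = 7.17e-10). WT hippocampus had 9005, 8634, 8644 and 9735 at PWK 1 and 4662, 5012, 4916 and 4472 at PWK 7, again without overlap (-0.92 ± 0.050, adjusted p = 4.09e-08). Grb10 (chr11:11930508-12038683, minus strand) fell by 0.58 on the log2 scale in WT cortex and by 0.58 in WT hippocampus (adjusted p = 3.31e-06 and 0.000207). Meg3, a maternally expressed long non-coding RNA (chr12:109541001-109571726, plus strand), changed by -0.16 ± 0.054 in cortex (adjusted p = 0.0186) and by -0.26 ± 0.060 in hippocampus (adjusted p = 0.00281). The cortical Meg3 call was lost without replicate 2 or 4 of PWK 1 or replicate 1, 3 or 4 of PWK 7 (adjusted p up to 0.0729).

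Peg3, a paternally expressed zinc finger gene (chr7:6703892-6730431, minus strand), moved the other way. WT cortex libraries had 11305, 11277, 11495 and 11077 at PWK 1 and 15032, 16158, 15411 and 15383 at PWK 7, which do not overlap and differ by 0.46 ± 0.038 (adjusted p = 5.25e-07). In WT hippocampus the difference was 0.19 ± 0.060 (adjusted p = 0.0163), and it was not called when each library was rescaled to the same total (adjusted p = 0.0726).

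Dlk1, a paternally expressed gene for a transmembrane protein related to Notch ligands (chr12:109452823-109463336, plus strand), rose in WT hippocampus and was not called in WT cortex. The hippocampal libraries had 33.4, 51.2, 31.4 and 34.2 at PWK 1 and 133, 161, 234 and 57.9 at PWK 7, and the groups did not overlap (1.80 ± 0.36, adjusted p = 0.00104). WT cortex had 33.1, 13.3, 21.2 and 12.5 at PWK 1 and 18.0, 39.2, 18.6 and 13.8 at PWK 7 (adjusted p = 0.748). The difference between the steps was tested as a region by age term and came to 1.65 ± 0.56 (adjusted p = 0.0431, with 21.3% of all genes called). That term was called in 5 of the 16 fits that leave out 1 library, with an adjusted p of up to 0.0875, and not after total-sum scaling (adjusted p = 0.0552). KI hippocampus went from 43.4, 76.1, 21.2 and 28.6 to 285, 199, 52.0 and 187 (2.00 ± 0.49, adjusted p = 0.00404).

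Plagl1, which encodes a zinc finger regulator of other imprinted genes (chr10:13060504-13131694, plus strand), and Mest, which encodes a hydrolase-like protein of the endoplasmic reticulum (chr6:30723547-30748465, plus strand), fell in WT hippocampus and were not called in WT cortex. The hippocampal values of Plagl1 went from 1614, 1795, 1576 and 1829 to 1057, 752, 1209 and 992 (-0.78 ± 0.12, adjusted p = 0.000168). Those of Mest went from 836, 1125, 862 and 851 to 634, 495, 517 and 711 (-0.64 ± 0.13, adjusted p = 0.00103). The region by age term was -0.88 ± 0.16 for Plagl1 (adjusted p = 0.000738) and -0.63 ± 0.15 for Mest (adjusted p = 0.00638). Ndn (0.40 ± 0.071, adjusted p = 0.000572) and Peg3 (-0.27 ± 0.072, adjusted p = 0.0132) completed the 5 members for which the tissues differed in this step.

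Cdkn1c was called in neither WT tissue at this step. Its mean was 170.2 ± 46.9 at PWK 1 and 181 ± 28.6 at PWK 7 in cortex (SD, n = 4), and 265 ± 57.5 and 218 ± 104 in hippocampus. The KI mice gave 7 called members in cortex (background 66.2%) and 6 in hippocampus (background 61.4%). Mest rose by 0.23 ± 0.092 in KI cortex (adjusted p = 0.0414), a call lost without replicate 1, 2 or 3 of PWK 1 or replicate 1 or 3 of PWK 7 (adjusted p up to 0.12). The genotype by age term was called by limma for 0 of the 10 members in cortex and for 0 in hippocampus, with 2 and 4 members at an unadjusted p under 0.05, and for 0% and 0.0109% of all genes.

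Between the adult ages few WT levels changed. From PWK 7 to 14 limma called 0 members in WT cortex (3 at an unadjusted p under 0.05, background 5.32%) and 0 in WT hippocampus (0 unadjusted, background 1.99%). From PWK 14 to 28 it called 0 in cortex (4 unadjusted, background 12%) and 0 in hippocampus (2 unadjusted, background 8.11%). Other settings called up to 2 in the later step and up to 1 in the earlier one. Igf2 in WT cortex came nearest, with 1445, 1804, 1441 and 1277 at PWK 14 and 2474, 2156, 1740.5 and 1677 at PWK 28 (0.42 ± 0.13, adjusted p = 0.0508). The groups overlapped, and the change passed without replicate 2 of PWK 14 or replicate 4 of PWK 28 (adjusted p down to 0.0251). In the 24 WT libraries of PWK 7, 14 and 28 H19 stayed at or below the highest cortex value of PWK 14, where the libraries had 13.4, 12.1, 15.98 and 5.31.

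The next comparison set hippocampus against cortex in WT mice, which asks where these genes stayed active. At PWK 1, 5 members differed (background 34.7%), and at PWK 7, 14 and 28, 7 members each (background 40.8%, 34.6% and 37.8%). Dlk1 and Igf2 were higher in hippocampus each time, and Grb10 was lower each time.

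Dlk1 showed the widest gap of the 10 genes at PWK 7, 14 and 28. In hippocampus it had 346, 190.4, 265 and 72.8 at PWK 14 and 285, 183, 182 and 185 at PWK 28, whereas the cortex libraries held 13.03, 15.0, 14.2 and 8.52 at PWK 14 and 11.4, 13.5, 14.8 and 20.4 at PWK 28. No hippocampal library at these ages overlapped with cortex, which held for 34.7% and 36.5% of all genes. From the youngest to the oldest age the log2 difference was 0.95 ± 0.31, 2.60 ± 0.41, 3.82 ± 0.40 and 3.71 ± 0.22 (adjusted p = 0.034, 0.000346, 1.35e-05 and 1.06e-07). At PWK 1 equal replicate numbers correlated between the WT tissues at 0.102 to 0.256, which does not show that they mark 1 mouse. Adding them as a block in limma gave adjusted p = 0.0526 for Dlk1 and 0.027 for Mest, which was not called without the block (0.0732). The PWK 1 difference of Dlk1 also did not pass without cortex replicate 2 or 4 or hippocampus replicate 1, 2 or 4 (adjusted p up to 0.103). In a fit of all 64 libraries, which pools their spread, the PWK 1 differences of Dlk1, Igf2 and Cdkn1c were not called (adjusted p = 0.12, 0.237 and 0.133), nor was that of Grb10 at PWK 28 (0.0707).

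**Figure D2:**
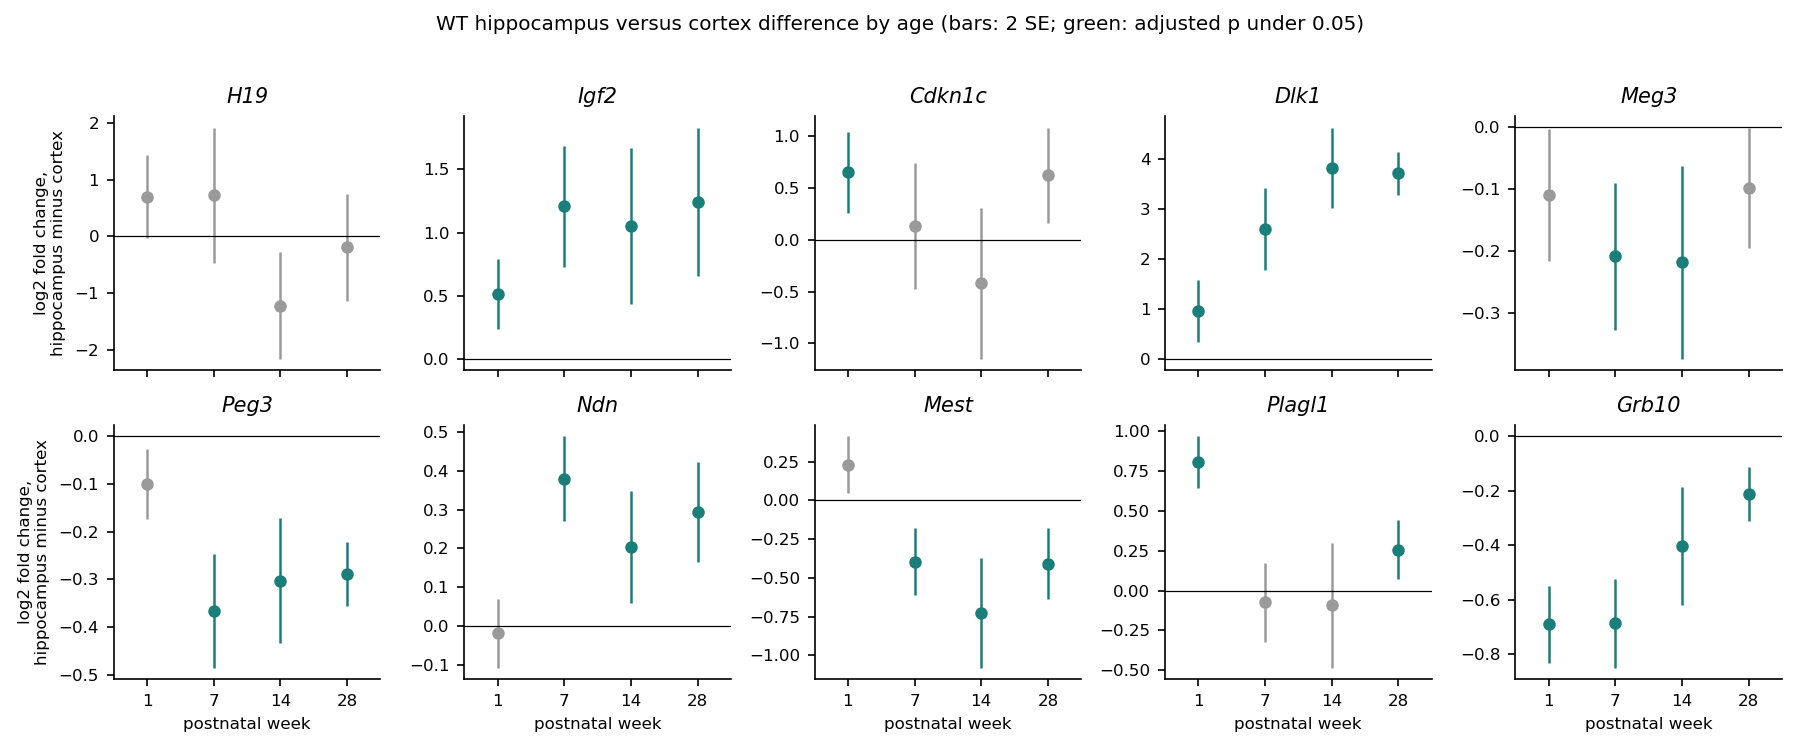
Each panel shows for 1 gene the log2 fold change of WT hippocampus over WT cortex (y axis) at the 4 postnatal weeks (x axis), with bars of 2 SE and green points where the adjusted p was under 0.05. Dlk1 rose from 0.95 at PWK 1 to 3.82 at PWK 14, Igf2 lay between 0.51 and 1.24 at all ages, Plagl1 went from 0.80 at PWK 1 to -0.092 at PWK 14 and 0.26 at PWK 28, and Mest went from 0.23 to -0.72 at PWK 14.

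In the same order of ages, Igf2 was higher in hippocampus by 0.51 ± 0.14, 1.21 ± 0.24, 1.05 ± 0.31 and 1.24 ± 0.29 (adjusted p = 0.0141, 0.00186, 0.0199 and 0.00573). The PWK 14 difference did not pass without cortex replicate 4 (adjusted p = 0.0521). Of 10 choroid plexus markers, 10, 10, 7 and 10 were also higher in hippocampus at these ages, with median log2 differences of 3.41, 4.97, 3.16 and 4.30. Their sum ranged from 1712 to 131326 in WT hippocampus and from 280 to 22645 in WT cortex. Leptomeningeal markers (collagens, Dcn, Lum and others) were higher in 8 of 10 at PWK 1 and 4 of 10 at each later age. Without cortex replicate 2 at PWK 28, the library with choroid plexus transcripts, the Igf2 difference at that age was 1.28 (adjusted p = 0.0117). The part of these cell types in the regional difference was not tested.

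Ndn was higher in hippocampus from PWK 7 on, by 0.38 ± 0.055, 0.20 ± 0.073 and 0.29 ± 0.064 (adjusted p = 0.00018, 0.0476 and 0.00355). Peg3 was lower at these ages (-0.37 ± 0.060, -0.30 ± 0.065 and -0.29 ± 0.034; adjusted p = 0.000463, 0.00334 and 3.57e-05), as was Mest (-0.40 ± 0.11, -0.72 ± 0.18 and -0.41 ± 0.11; adjusted p = 0.0118, 0.00726 and 0.0143). The part of choroid plexus transcripts in the Mest difference was not tested. Grb10 differed by -0.69 at PWK 7 (adjusted p = 3.81e-05) and by a like amount at PWK 1, where cortex held 2158, 2567, 2513 and 2376 and hippocampus 1460.4, 1662, 1353 and 1484 (-0.69 ± 0.071, adjusted p = 2.18e-05). Plagl1 at PWK 1 held 1001, 845, 1109 and 955 in cortex against 1614, 1795, 1576 and 1829 in hippocampus (0.80 ± 0.082, adjusted p = 2.02e-05). Neither of these pairs of groups overlapped, against 34.2% of all genes. Calls close to the threshold were those of Meg3 and Ndn at PWK 14 (adjusted p = 0.0475 and 0.0476), Plagl1 at PWK 28 (0.0477) and Cdkn1c at PWK 1 (0.0228), which stayed called in 1, 3, 2 and 5 of the 8 fits that leave out 1 library, with adjusted p up to 0.121, 0.134, 0.134 and 0.0692.

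The central question was whether these genes differed between KI and WT mice, and at which ages. At PWK 1 and PWK 7 limma called 0 of the 10 members in either tissue, where of all genes 0.00546% and 0.00545% were called for cortex and 0.0109% and 0.0218% for hippocampus. At an unadjusted p under 0.05 cortex gave 1 and 2 members and hippocampus 2 and 2, and the other settings also called 0. H19 had the lowest p of the members at PWK 7 in both tissues: KI cortex libraries had 11.9, 7.74, 13.8 and 9.22 against 5.54, 2.62, 0 and 3.71 in WT, and KI hippocampus libraries 11.5, 8.70, 7.66 and 7.20 against 5.85, 4.29, 2.80 and 5.06. Neither pair of groups overlapped, which held for 4.62% of all genes in cortex and 3.87% in hippocampus. The log2 differences of 1.81 ± 0.56 and 0.84 ± 0.34 did not pass (adjusted p = 0.39 and 0.748), and all these values lie at a few counts per library. In cortex Peg3 was also separate at PWK 7, with 14321 to 14805 in KI and 15032 to 16158 in WT libraries. So was Ndn at PWK 1, with 8687 to 8932 in KI and 9010 to 9207 in WT libraries, where 3.15% of all genes were separate. Neither gene was called.

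**Figure D3:**
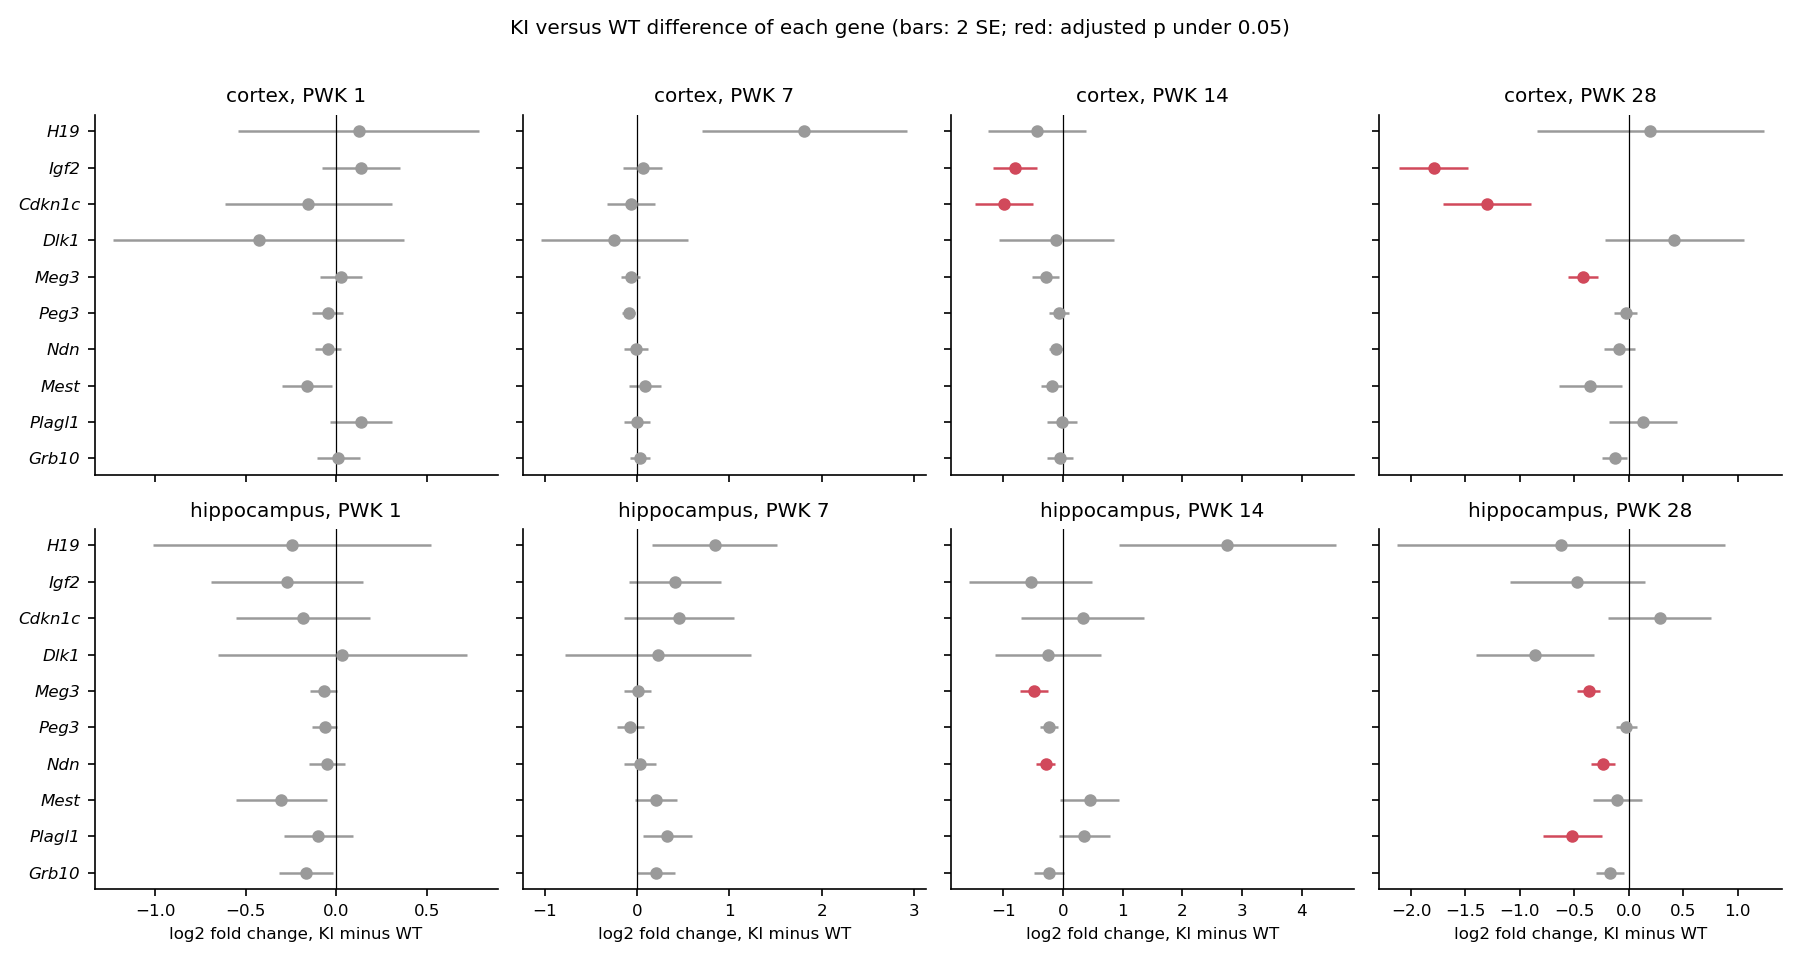
Each of the 8 panels gives, for 1 tissue and age, the log2 fold change of KI over WT for the 10 genes, with bars of 2 SE and red points where the adjusted p was under 0.05. No gene is red at PWK 1 or 7, Igf2 and Cdkn1c are red in cortex at PWK 14 and 28, and Meg3 is red in 3 of the 4 panels of PWK 14 and 28.

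In cortex at PWK 14, 2 members were lower in KI mice, Igf2 and Cdkn1c, against 2.7% of all genes called lower and 5.18% called in all. Igf2 had 1445, 1804, 1441 and 1277 in WT and 630.3, 714, 949 and 1219.6 in KI libraries (-0.80 ± 0.18, adjusted p = 0.0316). Cdkn1c, the maternally expressed inhibitor of the cell cycle (chr7:143458339-143461050, minus strand), had 203, 196, 179 and 169 in WT and 53.4, 88.3, 116 and 139 in KI libraries (-0.99 ± 0.25, adjusted p = 0.0427). For both genes every KI mouse lay below every WT mouse, a separation seen for 14.2% of all genes. Both calls were lost without KI replicate 2 or any 1 of the 4 WT replicates (adjusted p up to 0.0907 for Igf2 and 0.121 for Cdkn1c). Cdkn1c was also not called after total-sum scaling (adjusted p = 0.0514) or with no filter on low values (0.0613), nor Igf2 in the fit of all 64 libraries (0.106). With the replicate number as a block neither gene was called. KI replicate 1 had the lowest Igf2, Cdkn1c and Meg3 (133167) of its group and the highest Gfap, at 12404 against 4322 to 5221 in the other KI mice.

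In cortex at PWK 28, 3 members were lower in KI mice, Igf2, Cdkn1c and Meg3, with 22.2% of all genes called and 10% called lower. Igf2 had 2474, 2156, 1740.5 and 1677 in WT and 506, 709, 644 and 465 in KI libraries, a ratio of means of 0.289 and a log2 fold change of -1.79 ± 0.16 (adjusted p = 0.000138). Cdkn1c had 182, 157, 149 and 132 in WT and 54.1, 72.3, 82.1 and 45.4 in KI libraries (-1.30 ± 0.20, adjusted p = 0.0018). Meg3 had 181966, 192083, 176228 and 172646 in WT and 124587, 147189, 134042 and 134913 in KI libraries (-0.42 ± 0.068, adjusted p = 0.00215). These groups did not overlap, which held for 4 members, the fourth being Grb10 with 1300.2 to 1340.2 in WT and 1166 to 1271 in KI libraries (-0.13 ± 0.057, adjusted p = 0.132), and for 25.8% of all genes. Each of the 3 calls held in all 8 fits that leave out 1 library. In the fit without WT replicate 2, which carried choroid plexus transcripts, Igf2 differed by -1.75, Cdkn1c by -1.29 and Meg3 by -0.39. Mest differed by -0.36 ± 0.14 and was called only without KI replicate 3 (adjusted p = 0.105 with it and 0.0194 without).

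Markers of the cells that are known to express Igf2 were measured in the same cortex libraries. Of 10 leptomeningeal markers, 4 were higher and 0 lower in KI cortex at PWK 14, with a median log2 difference of 0.79, and 5 were higher and 2 lower at PWK 28, with a median of 0.49, where the medians over all genes were -0.0018 and -0.0034. Without WT replicate 2 the counts at PWK 28 were 3 higher and 2 lower. Lum, a proteoglycan of connective tissue, rose by 1.36 (adjusted p = 0.0215) and 1.21 (adjusted p = 0.000713), whereas the GABA transporter gene Slc6a13 fell by 1.03 (adjusted p = 0.00383) and Ogn by 0.96 (adjusted p = 0.0133) at PWK 28. The summed level of the list was 1898 to 2955 in WT and 2869.8 to 5746 in KI cortex at PWK 14, and 2676 to 4207 in WT and 3780.0 to 4684 in KI at PWK 28. Of 10 choroid plexus markers limma called 0 in cortex at either age (3 and 1 at an unadjusted p under 0.05), and 1 was higher in KI at PWK 28 without WT replicate 2. Their median log2 difference was -0.045 at PWK 14 and -0.95 at PWK 28 (-0.26 without WT replicate 2), and their sum at PWK 14 was 424 to 613 in WT and 373 to 657 in KI libraries. Their part in the lower Igf2 and Cdkn1c of KI cortex was not tested.

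**Figure D4:**
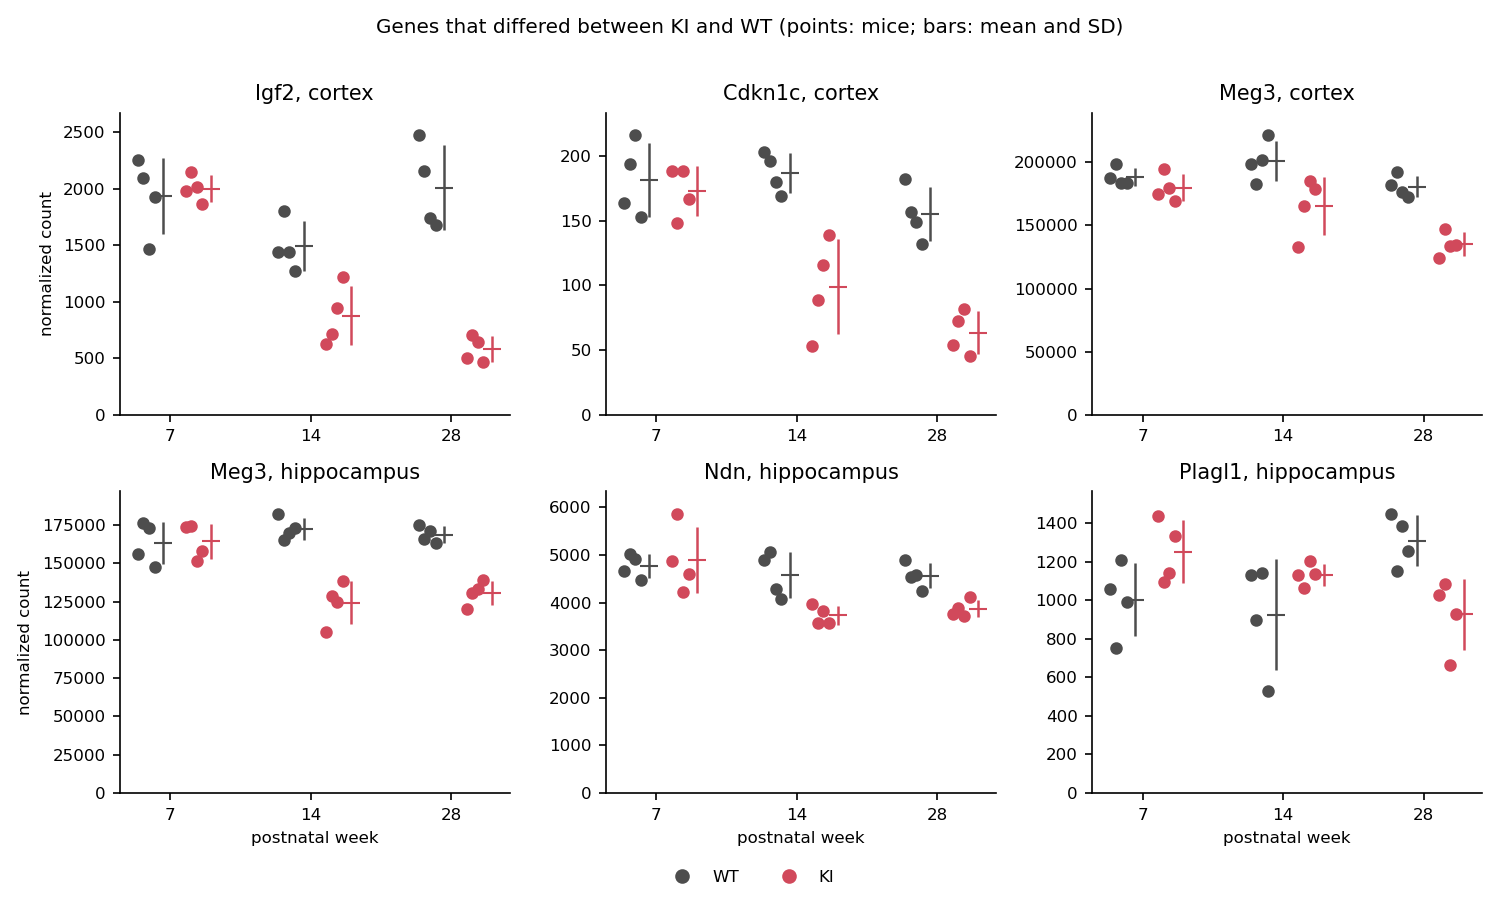
Normalised counts (y axis, from 0) of members called in KI against WT mice are plotted by postnatal week (x axis), grey for WT and red for KI, with 1 point per mouse and the mean with SD beside the points. Igf2 and Cdkn1c in cortex separate at PWK 14 and at PWK 28, while Meg3, Ndn and Plagl1 in hippocampus differ by at most 0.52 on the log2 scale where called.

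In hippocampus at PWK 14, 2 members were lower in KI mice, Meg3 and Ndn, with 15.6% of all genes called and 7.95% called lower. In the fit of all 64 libraries 6 members were called, and with the replicate number as a block no member was called. Meg3 had 182347, 165322, 169799.9 and 173069 in WT and 104868, 128542, 124652 and 138314 in KI libraries (-0.48 ± 0.12, adjusted p = 0.023). Ndn had 4897, 5072, 4275 and 4079 in WT and 3967, 3571, 3821 and 3563 in KI libraries (-0.29 ± 0.080, adjusted p = 0.0367). The groups did not overlap for 4 members, Meg3, Ndn, Peg3 and H19, against 23.8% of all genes. Without KI replicate 1, which stood apart, Meg3 differed by -0.40 (adjusted p = 0.00951) and Ndn by -0.32 (adjusted p = 0.0252). Meg3 was not called without any 1 of the WT replicates (adjusted p up to 0.0844), nor Ndn without KI replicate 2, 3 or 4 or WT replicate 1 or 2 (adjusted p up to 0.111), and Ndn not after total-sum scaling (0.0585). Peg3 had 12029.6, 10939.6, 12883 and 10755 in WT and 9286, 9613, 9810.1 and 10703 in KI libraries (-0.24 ± 0.075, adjusted p = 0.0583) and passed without KI replicate 4 (adjusted p = 0.0427).

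H19 reached the neonatal range in a single KI mouse. KI hippocampus libraries at PWK 14 had 299, 15.4, 16.8 and 15.2 and WT libraries 2.32, 3.35, 10.1 and 3.34, so that all 4 KI mice exceeded all 4 WT mice (2.75 ± 0.91, adjusted p = 0.0695). The mouse at 299 was replicate 1, the library with the high Gfap and cell cycle transcripts. Its value lay within the range of 147 to 629 of the hippocampus libraries of PWK 1. Its proliferation score, the mean log2(normalised count + 1) of the 8 cell cycle genes, was 8.77, beside 8.01 to 8.33 in KI hippocampus at PWK 1. Without this library H19 differed by 1.71 and passed (adjusted p = 0.0304), with the remaining KI values at 15.2 to 16.8. At PWK 28 KI hippocampus had 12.5, 0, 6.16 and 0.709 against 4.61, 7.40, 3.13 and 3.73 in WT (adjusted p = 0.63).

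In hippocampus at PWK 28, 3 members were lower in KI mice, Meg3, Ndn and Plagl1, with 15.8% of all genes called and 6.91% called lower. Meg3 had 175177, 165520.4, 171190.2 and 163148 in WT and 120032, 130555, 133018 and 139057 in KI libraries (-0.37 ± 0.053, adjusted p = 0.00113). Ndn had 4899, 4544, 4572 and 4245 in WT and 3759, 3879, 3717 and 4122 in KI libraries (-0.24 ± 0.053, adjusted p = 0.0123). Plagl1 had 1448, 1149, 1383 and 1255 in WT and 1026, 1086, 665 and 926 in KI libraries (-0.52 ± 0.14, adjusted p = 0.0254). All 3 pairs of groups were separate, as were those of Dlk1, for which WT libraries had 285, 183, 182 and 185 and KI libraries 150.2, 120.2, 60.0 and 146 (-0.86 ± 0.27, adjusted p = 0.0521), against 21.5% of all genes. Plagl1 was not called without WT replicate 1, 3 or 4 (adjusted p up to 0.0787), and Dlk1 passed without KI replicate 1 or 4 (adjusted p down to 0.0441).

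Markers of other cells were measured in the same hippocampus libraries. Of 5 astrocyte markers, 2 were higher and 0 lower in KI mice at PWK 14 (3 and 0 without KI replicate 1), and 2 and 0 at PWK 28. Gfap, the intermediate filament of reactive astrocytes, rose by 2.75 (adjusted p = 0.00129) and 2.00 (adjusted p = 3.35e-07). The summed astrocyte markers, Gfap included, were 41003 to 45257 in WT and 73319.8 to 192957 in KI libraries at PWK 14. At PWK 28 they were 42631 to 44272 and 71271 to 82983, so that the sums were apart at both ages. Sums without Gfap were not taken, so these sums do not show a shift of the other astrocyte markers. Of 7 neuronal markers, 1 was higher and 1 lower at PWK 14 (2 and 1 without KI replicate 1), and 4 were higher and 1 lower at PWK 28, when their sum was 157103 to 169538 in WT and 168210.4 to 179309.9 in KI libraries. Of 5 markers of hippocampus against other regions, 0 were higher and 3 lower at PWK 14, also without KI replicate 1, and 1 was higher and 1 lower at PWK 28, and their sum was 10925 to 15258 in WT and 6629 to 10908 in KI libraries at PWK 14. Limma called 0 of 5 oligodendrocyte and 0 of 5 microglial markers at PWK 14 (0 of each at an unadjusted p under 0.05), and 1 and 3, all higher in KI mice, at PWK 28. The part of these markers in the lower Meg3, Ndn and Plagl1 was not tested.

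Igf2 and Cdkn1c were not called in hippocampus at either age. At PWK 28 Igf2 had 4585, 2297, 7697 and 6040.0 in WT and 4102, 3335, 4047 and 2384 in KI libraries (-0.47 ± 0.31, adjusted p = 0.337), and Cdkn1c had a mean of 250.4 ± 89.2 in WT and 292 ± 49.3 in KI libraries (SD, n = 4; limma adjusted p = 0.462). A test of the difference between tissues, the genotype by region term, gave 1.59 ± 0.33 for Cdkn1c at PWK 28 (adjusted p = 0.0113, background 4.57%). The ratio of KI to WT means of Cdkn1c was 0.409 in cortex and 1.17 in hippocampus. Within groups, hippocampal Cdkn1c followed the level of choroid plexus transcripts (r = 0.9 over 24 libraries, described below). The part of these transcripts in the term was not tested. The fit of the term took all libraries as independent, although the same mice gave both tissues. Equal replicate numbers of KI mice at PWK 28 correlated between the tissues at 0.239 to 0.443. For Igf2 the genotype by region term was 1.32 ± 0.39 (adjusted p = 0.066), and it was called without KI cortex replicate 2, KI hippocampus replicate 4 or WT hippocampus replicate 3 (adjusted p down to 0.0263). At PWK 14 limma called the term for 0 members (3 at an unadjusted p under 0.05, 2 in the fit of all 64 libraries, background 2.85%). The change of the KI effect from PWK 14 to 28 was called for 0 members in cortex (1 at an unadjusted p under 0.05) and 0 in hippocampus (3 unadjusted, 2 in the fit of all 64 libraries), where 0% of all genes were called in each. For Igf2 in cortex it was -0.99 ± 0.26 (adjusted p = 0.119) and passed without KI replicate 1 of PWK 14 or KI replicate 2 of PWK 28 (adjusted p down to 0.0303).

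Within groups, hippocampal Igf2 followed the level of choroid plexus transcripts in the library. Over the 24 hippocampus libraries of PWK 7, 14 and 28, with group means removed, Igf2 and the choroid plexus score (the mean log2(normalised count + 1) of the 10 markers) had Pearson's r = 0.878 and Spearman's rho = 0.931 (two-sided permutation test within groups, 100000 resamples, adjusted over 4 relations, p = 8e-05 for each; raw p = 2e-05). Without the 2 libraries farthest from the median score r was 0.848. With the leptomeningeal score r was 0.663 and rho 0.627 (permutation, adjusted p = 0.00214 and 0.0085), and r was 0.63 without the 2 farthest. In cortex r was 0.397 with the leptomeningeal score (rho 0.426, permutation, adjusted p = 0.202 and 0.111; r = 0.187 without the 2 farthest) and 0.246 with the choroid plexus score (rho 0.21, permutation, adjusted p = 0.344 and 0.382; r = 0.256), and neither passed. As a description over the same 24 hippocampus libraries, r with the choroid plexus score was 0.90 for Cdkn1c and 0.82 for Mest, between 0.00 and 0.14 for Meg3, Peg3, Grb10 and Plagl1, -0.16 for H19 and -0.25 for both Dlk1 and Ndn.

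**Figure D5:**
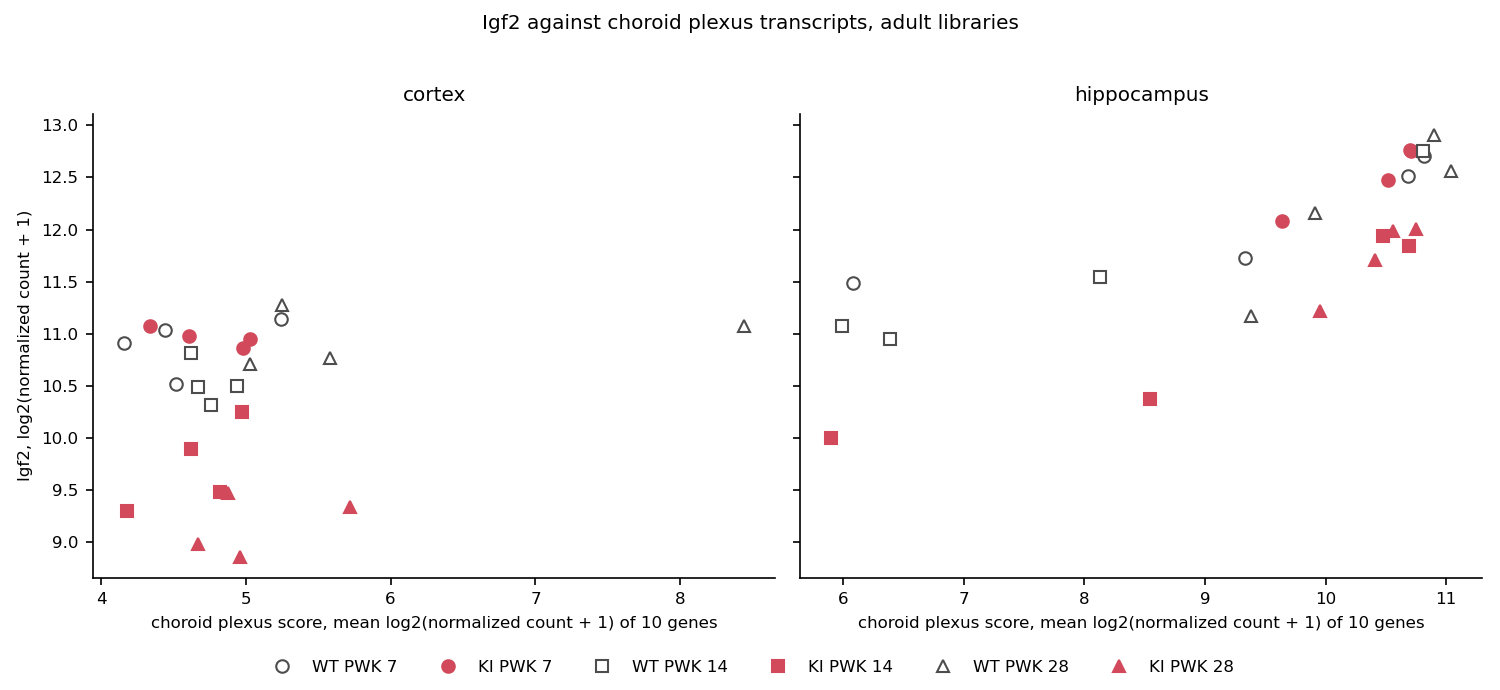
Igf2 as log2(normalised count + 1) (y axis) is plotted against the choroid plexus score (x axis) for the 24 cortex libraries and the 24 hippocampus libraries of PWK 7, 14 and 28, with WT and KI and the 3 ages told apart by colour and symbol. In hippocampus Igf2 rose with the score (r = 0.878 within groups). In cortex the KI mice of PWK 14 and 28 lay low in Igf2 at scores of 4.18 to 5.72, and WT scores ran from 4.16 to 8.44. WT cortex replicate 2 of PWK 28 carried choroid plexus transcripts (Ttr at 20074). The part of these transcripts in the Igf2 of cortex was not tested.

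Single libraries show the range of this relation. At PWK 14 the WT hippocampus replicates 1 and 4 had scores of 6.39 and 5.99 and Igf2 of 1977 and 2163, whereas WT replicate 3 had a score of 10.81 and Igf2 of 6925. KI replicate 1 had a score of 5.90 and Igf2 of 1021, and KI replicate 3 a score of 10.69 and Igf2 of 3669. None of the 10 choroid plexus markers was called between KI and WT hippocampus at any age, or reached an unadjusted p under 0.05, with a median log2 difference of 1.04 at PWK 14 and 0.13 at PWK 28. Without KI replicate 1 the median at PWK 14 was 1.98.

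Of the further imprinted genes in the chromosome 12 domain, Rian, Mirg, Rtl1 and Dio3 were each called in at least 1 comparison of KI with WT mice. The member Dlk1 was called in none, with a limma adjusted p of 0.0521 in hippocampus at PWK 28. At PWK 14 and 28, 5.18% and 22.2% of all genes were called in cortex and 15.6% and 15.8% in hippocampus. Rian and Mirg, non-coding transcripts of the maternal copy downstream of Meg3, fell in KI cortex at PWK 28 by 0.33 (adjusted p = 0.00874) and 0.56 (adjusted p = 0.00262), and Mirg fell in KI hippocampus at PWK 14 (-0.30, adjusted p = 0.0317) and PWK 28 (-0.45, adjusted p = 0.00113). Rtl1, a retrotransposon-derived gene expressed from the paternal copy, had 2.87, 3.95, 2.76 and 2.87 in WT and 58.4, 43.6, 70.4 and 116 in KI cortex at PWK 28 (4.07 ± 0.33, adjusted p = 9.56e-05). In hippocampus it had 4.14, 4.47, 9.58 and 5.56 in WT and 174, 109, 191 and 113 in KI libraries at PWK 14 (4.43 ± 0.31, adjusted p = 0.000129; 4.33 without KI replicate 1). At PWK 28 it had 8.89, 3.63, 7.93 and 9.63 in WT and 95.6, 140.3, 139 and 100.3 in KI hippocampus (3.86 ± 0.29, adjusted p = 2.32e-05). No WT library of PWK 7, 14 or 28 exceeded 9.63, and no KI library of PWK 1 or 7 exceeded 7.86. Dio3, which encodes the deiodinase that inactivates thyroid hormone at the far end of the domain, fell by 1.21 on the log2 scale in KI cortex at PWK 28 (adjusted p = 0.0166). The maternal copy is transcribed antisense to Rtl1, and Igf2 and Mest are overlapped on the other strand by Igf2os and Copg2; the kit keeps strand, but the sources do not state how counting used it, so for these genes reads of the partner cannot be told apart.

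Across the 24 further paternally expressed genes tested, 2 were higher and 1 lower in KI cortex at PWK 14, 3 higher and 5 lower in cortex at PWK 28, 3 higher and 4 lower in hippocampus at PWK 14 and 3 higher and 5 lower at PWK 28. Of all genes, 5.18% and 22.2% were called in these cortical comparisons and 15.6% and 15.8% in the hippocampal ones. Peg10, another retrotransposon-derived gene, was higher each time, by 0.90 (adjusted p = 0.0303), 1.28 (adjusted p = 5.19e-05), 0.95 (adjusted p = 0.00605) and 1.05 (adjusted p = 0.00854). At PWK 28 Zdbf2 fell by 1.50 (adjusted p = 0.000292) in cortex and by 1.00 (adjusted p = 0.000371) in hippocampus, and Magel2, a MAGE gene near Ndn, by 1.28 (adjusted p = 0.0355) and 1.29 (adjusted p = 0.00487). The list medians were -0.089, -0.070, -0.0090 and -0.097, beside medians of -0.0018, -0.0034, 0.0060 and 0.0037 over all genes. Without WT replicate 2, 3 were higher and 3 lower in cortex at PWK 28, and Magel2 was not called (adjusted p = 0.0714).

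Of 19 further maternally expressed genes tested, 0 were called in cortex at PWK 14 (5 at an unadjusted p under 0.05), 3 were higher and 4 lower in cortex at PWK 28, 2 higher and 2 lower in hippocampus at PWK 14 and 1 higher and 3 lower at PWK 28. The shares of all genes called were again 5.18% and 22.2% for cortex and 15.6% and 15.8% for hippocampus. The potassium channel gene Kcnq1, in the same imprinted cluster as Cdkn1c, was higher by 2.73 in cortex at PWK 28 (adjusted p = 0.00505) and, in the hippocampal comparisons of PWK 14 and 28, by 3.22 and 2.42 (adjusted p = 0.00186 and 0.0137). Without KI replicate 1 the counts in hippocampus at PWK 14 were 3 higher and 4 lower for the paternal list and 2 higher and 2 lower for the maternal list. The list medians of the maternal genes at PWK 28 were 0.13 in cortex and -0.0030 in hippocampus. Limma called 0 genes of either list in the 4 comparisons of PWK 1 and 7, where at an unadjusted p under 0.05 the paternal list had 1 to 3 genes and the maternal list 0 to 3.

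Genes that act in the IGF pathway were counted beside Igf2. Of 17 tested in KI cortex at PWK 14, 3 were higher and 0 lower, and at PWK 28 6 were higher and 2 lower. In hippocampus 4 were higher and 0 lower at PWK 14 (6 and 1 without KI replicate 1) and 4 higher and 3 lower at PWK 28. Beside these counts, 5.18%, 22.2%, 15.6% and 15.8% of all genes were called in the same order. The binding protein gene Igfbp5 rose in cortex by 0.51 (adjusted p = 0.035) and 0.96 (adjusted p = 0.00161) at PWK 14 and 28, and Igfbp7 by 1.32 at PWK 28 (adjusted p = 0.00635). Pappa, a metalloproteinase that cleaves IGF binding proteins, rose in hippocampus by 3.60 (adjusted p = 0.000875) and 2.13 (adjusted p = 1.34e-05), and Pappa2 by 3.31 (adjusted p = 0.00333) and 1.86 (adjusted p = 0.0123) there and by 2.21 in cortex at PWK 28 (adjusted p = 0.00243). Irs1 and Irs2, adaptors of the IGF and insulin receptors, fell in cortex at PWK 28 by 0.49 (adjusted p = 0.0329) and 0.95 (adjusted p = 0.000208). Neither receptor gene, Igf1r or Igf2r, was called in these 4 comparisons. For cortex the list medians were 0.27 and 0.20, and for hippocampus 0.11 (0.33 without KI replicate 1) and 0.023.

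The same lists were counted over the step from PWK 1 to 7 in WT mice. Of the 24 paternally expressed genes 11 fell and 7 rose in cortex, and 11 fell and 7 rose in hippocampus, with Mkrn3, another gene of the region of Ndn, falling by 4.53 (adjusted p = 8.38e-11) and 3.88 (adjusted p = 1.31e-08) and Rasgrf1 rising by 1.99 (adjusted p = 7.37e-08) and 1.93 (adjusted p = 1.63e-10). Of the 19 maternally expressed genes 10 fell and 3 rose in cortex, and 9 fell and 3 rose in hippocampus. Zim1, which neighbours Peg3, fell by 2.30 (adjusted p = 5.24e-07) and 2.10 (adjusted p = 1.96e-06). Of 18 IGF pathway genes 10 fell and 2 rose in cortex, and 13 fell and 2 rose in hippocampus. Igf2bp3, an RNA-binding protein of fetal tissues, fell by 4.04 (adjusted p = 3.76e-06) and 3.87 (adjusted p = 4.33e-06), and Igf1 fell by 1.55 in cortex (adjusted p = 1.13e-07), while Igfbp6 rose by 4.36 (adjusted p = 1.72e-09) and 1.00 (adjusted p = 0.0099). These counts stand beside the 65.3% and 61.3% of all genes called in the 2 tissues.

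For each member, the genes whose group means ran most alike over the 16 groups were found among 17063 genes with a mean of at least 10. H19 ran closest to 3 genes of cell division, Ndc80 (Pearson's r = 0.982), Ccna2 (0.981) and Cdca3 (0.976). Ndn ran with Ppp1r14c (0.991) and Kcnk10 (0.99), Peg3 with Aplp2 (0.98), Tsc1 (0.979) and Ralgapb (0.956), and Meg3 with Msc (0.973), Obsl1 (0.959) and Inha (0.957). Igf2 ran with Khdrbs2 (0.965), March8 (0.965) and Grm5 (0.958), Dlk1 with B4galt4 (0.973), Sipa1l3 (0.969) and Slit1 (0.969), and Grb10 with Cxxc4 (0.974), Gm5113 (0.971) and Zbtb34 (0.968). For Cdkn1c, Mest and Plagl1 the closest genes, Acaa2, E230020A03Rik and G2e3, reached 0.881, 0.851 and 0.891. These are likenesses over groups in which the same mice gave both tissues, chosen as the highest among all genes, and are given without a test.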

How the data were processed

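RNA from frontal cortex and hippocampus, kept in RNAlater, was sequenced as 64 stranded TruSeq libraries, named an mRNA kit in the labels and a total RNA kit in the study's methods. The authors estimated transcript abundance with Salmon on GRCm38, imported it into R with tximport and scaled it with DESeq2; the submitters' processing notes give Salmon 0.11.2, R 3.6.0 and DESeq2 1.19.11, and the study's methods other versions. The deposited values are a normalised signal, estimated counts divided by size and transcript length factors over all 64 libraries, with no gene mean below 4.25. Whole reads could not be recovered (22.8 to 44.1% of low values lay within 0.1 of a whole number, where chance gives 20%), so no count test was run and read depth is unknown.

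Of 18432 Ensembl identifiers, 18420 matched a gene symbol. Genes with a mean of at least 1 in the libraries compared were tested on log2(value + 1) with limma 3.58.1 (R 4.3.3, trended empirical Bayes, two-sided), fitting the groups compared, and p-values were adjusted by Benjamini-Hochberg over all genes tested in each of 27 comparisons. The fit was tested on simulated data for a single comparison, with large changes of known size in genes of higher level. That simulation does not cover low genes, small changes or tissues of the same mice. The 10 members and the gene lists (imprinted, IGF pathway and cell type markers) were chosen with earlier results of these data known; up to 4 called members of a list with the largest change per direction were named. Scores, permutation tests (100000 resamples) and likeness between genes were computed in Python 3.11.15 with numpy 2.4.6, scipy 1.17.1 and pandas 2.3.3; not every like gene is reported here. Gene positions are those of GENCODE on GRCm38, and sequences are from RefSeq (GRCm38.p6), with windows of 250 bases before and 50 after a start site for 8 members.

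Each group held 4 mice, so p-values measure the spread between these mice. Both tissues came from the same mice, but the labels do not say that equal replicate numbers mark 1 mouse. Over 12819 genes, every pair of equal numbers correlated above 0.1 in 0 of 8 genotype, 2 of 8 region and 1 of 12 age comparisons. Among comparisons of 2 groups tested with a block this held for WT regions at PWK 1. It also held for KI regions at PWK 28 and KI hippocampus at PWK 28 and 14, which entered only the genotype by region and genotype by age terms. In those terms the block gave WT and KI mice of equal number a shared effect. Unequal numbers were not correlated for comparison, and KI hippocampus at PWK 28 and 14 came from different mice. A correlation above 0.1 therefore does not show that equal numbers pair the samples. Fits without the block took the libraries of both tissues as independent. Alternatives were a pseudocount of 10, no filter on low values, total-sum scaling, a fit of all 64 libraries, the replicate number as a block, and leaving out each library in turn; the marker relations were repeated with the median of the markers and without the 2 farthest libraries.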

Additional observations from a re-analysis of the deposited data

Results flagged for a closer look

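Of 160 sets of 4 values (10 genes in each of the 16 groups, which share their libraries), 7 held 1 far from the other 3 by Dixon's test, a share near the 1 in 20 that chance gives. H19 was high in 1 library of KI hippocampus at PWK 14 (299) and in 1 of WT hippocampus at PWK 14 (10.1). Dlk1 was high in 1 library of WT hippocampus at PWK 1 (51.2) and 1 at PWK 28 (285). Ndn was low in 1 library of KI cortex at PWK 7 (3196). Mest was high in 1 library of WT hippocampus at PWK 1 (1125) and low in 1 of KI hippocampus at PWK 28 (527). All are normalised counts, and the KI library with H19 at 299 was the one with high Gfap and cell cycle transcripts.

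The step from PWK 1 to 7 in WT mice differed between hippocampus and cortex for 5 genes by the interaction term in limma, with log2 differences of -0.27 for Peg3, -0.88 for Plagl1, 0.40 for Ndn, 1.65 for Dlk1 and -0.63 for Mest. The KI effect at PWK 28 differed between the tissues for Cdkn1c, by 1.59 on the log2 scale. The ratio of KI to WT means was 0.409 in cortex and 1.17 in hippocampus. Hippocampal Cdkn1c followed choroid plexus transcripts within groups (r = 0.9 over 24 libraries), and their part in this difference was not tested.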

How the results depend on the processing

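No single-gene result turned its direction under any setting. Members called between KI and WT cortex at PWK 14 (2) numbered 1 with no filter, 1 after total-sum scaling, 0 with the replicate block and 0 to 2 when 1 library was left out. In hippocampus at PWK 14 (2) they numbered 1 after total-sum scaling, 6 in the fit of all 64 libraries, 0 with the replicate block and 0 to 3 with 1 library left out. WT cortex gave 0 to 1 for PWK 14 against 7 (0) with 1 library left out, and for PWK 28 against 14 (0) gave 2 after total-sum scaling, 1 with the block and 0 to 2 with 1 library left out; WT hippocampus for that step (0) gave 2 in the fit of all 64 and 0 to 2. WT hippocampus against cortex at PWK 1 (5) gave 2 in the fit of all 64 and 3 to 7. The genotype by age term from PWK 14 to 28 gave 0 to 1 in cortex (0) and 2 in hippocampus (0) in the fit of all 64, and the genotype by region term 2 at PWK 14 (0) in that fit and 1 to 4 at PWK 28 (1). The cause was not tested.

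The replicate block left 24 of 27 counts and 108 of 116 single genes on their side of the threshold. In no comparison of genotype did every pair of equal numbers correlate above 0.1. A pseudocount of 10 changed 1 of 116 genes, no filter 5, total-sum scaling 11 and the fit of all 64 libraries 18. Of 1112 single-gene fits without 1 library, 76 lost and 25 gained a call. Total-sum scaling moved the median of all genes by at most 0.0965 on the log2 scale. It moved the share of calls that were higher from 47.8% to 60.4% (cortex PWK 14), 54.8% to 43.7% (cortex PWK 28) and 56.3% to 40.6% (hippocampus PWK 28) for KI against WT, from 43.7% to 63.4% and 39.8% to 55.6% for WT PWK 28 against 14 in cortex and hippocampus, from 46.3% to 66.6% for WT regions at PWK 1, from 54.1% to 41% for region by age and from 57.7% to 47.2% for genotype by region at PWK 14. Read depth is unknown, so the counting error of low genes such as H19 and Dlk1 could not be given.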
